A study of Mus musculus with 6 samples.

Results

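AOS-14 and AOS-16 are androgenetic haploid embryonic stem cell (AG-haESC) lines of the mouse, and their messenger RNA was compared gene by gene from 1 library each. Every gene whose symbol does not start with Mir, Snora or Snord, and whose level reached at least 1 in AOS-14 or AOS-16 after both libraries were rescaled to the same total, was a member. These were 13055 genes of the 23889 symbols listed. Levels are given in TPM, transcripts per 1e+06, and a difference is log2(TPM + 1) in AOS-14 minus log2(TPM + 1) in AOS-16, so that a negative difference is a higher level in AOS-16. A gene is called higher in a line when this difference is at least 1, a change of 2-fold on that scale, which understates the change of weakly expressed genes. With 1 library per line no replicate check and no test was possible, and every difference below describes these libraries.

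AG-haESCs carry a single set of chromosomes that came from a sperm. Per the labels' protocols, the spindle of a metaphase oocyte from a BDF1 female (F1 hybrid C57BL/6 X DBA/2) was removed, a sperm head was injected, and the resulting blastocyst was plated on feeder cells in a medium with serum replacement and 2i, which blocks the kinases MEK and GSK3. Haploid cells in G0/G1 were then collected by flow sorting after DNA staining with Hoechst. The labels give AOS-14 and AOS-16 the same strain, cell type and protocols, and do not say in what they differ beyond the line name. Besides this pair the series holds 1 library of A129-2, another AG-haESC line with the same labels, 1 of round sperm and 2 of ESC XX. The ESC XX cells carry an Oct-GFP reporter on a C57 background, and were grown in serum, LIF and 2i and collected after removal of the feeders, with no sort named. They were deposited in tables of their own and thus scaled apart, so their levels are set beside those of the haploid lines only as a reference.

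Several programs that respond to the state of a cell recur below. The unfolded protein response is switched on when proteins fail to fold in the endoplasmic reticulum (ER), and its sensors ATF6, IRE1 and PERK raise the ER chaperones, the machinery that degrades misfolded proteins and the transcription factors XBP1 and ATF4. The hypoxia-inducible factors (HIF) accumulate when oxygen is low and raise glucose uptake, glycolysis and the enzymes that sense oxygen. The tumour suppressor p53 is encoded by Trp53 and raises genes of cell cycle arrest, DNA repair and cell death. Embryonic stem cells make heavy use of glycolysis, and haploid cells of mammals are known to become diploid during culture.

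At the bound of 2-fold, 439 genes (3.36%) were higher in AOS-14 and 661 (5.06%) were higher in AOS-16, which makes 1100 genes (8.43%) in either direction. The difference had a median of -0.11 and a standard deviation of 0.64 across genes. Between the ESC XX libraries, which share 1 label, only 36 of 13031 genes (0.276%) differed as much and the standard deviation was 0.18. Of the 7673 genes whose mean reached 10 TPM, 110 were higher in AOS-14 and 264 in AOS-16. The balance between the directions depended on the scale. On the FPKM as deposited, with the small RNA symbols included, 562 genes were higher in AOS-14 and 262 were lower there, and the median of all genes moved to 0.07. After quantile normalization the counts were 533 and 428. The differences of the lists below were therefore also taken relative to the median of all genes.

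**Figure D1:**
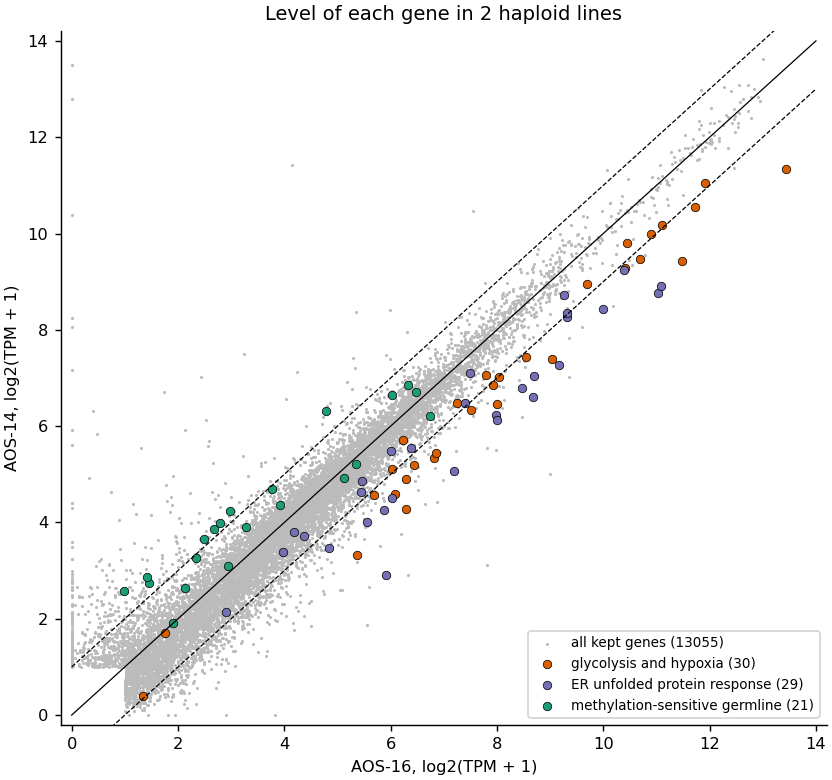
Each point is 1 of the 13055 genes, with its level in AOS-16 on the horizontal axis and in AOS-14 on the vertical axis, both as log2(TPM + 1); the solid line marks equal levels and the dashed lines a difference of 1. Genes of glycolysis and hypoxia and of the ER unfolded protein response lie on the side of AOS-16, and most methylation-sensitive germline genes on the side of AOS-14.

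Beyond the members, the libraries differed in depth and in small RNA. From the whole-fragment steps of weakly expressed genes, depth was estimated at about 19.7 M (mega) fragments in AOS-14 and 10.8 M in AOS-16. At these depths 1 fragment on a transcript of 1 kb is worth 0.0814 TPM in AOS-14 and 0.169 TPM in AOS-16, and these depths are approximate. The symbols that start with Mir, Snora or Snord held 11.9% of all FPKM in AOS-14 and 0.00192% in AOS-16, against 0.108% in A129-2. The mRNA of Eef1a1, a translation elongation factor, was listed at 0 in all 3 AG-haESC libraries. In bulk samples, fewer cells of a type and less RNA per cell cannot be told apart.

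Genes of the ER unfolded protein response were higher in AOS-16. Of 29 genes of this pathway, all were measured and kept, 17 were higher in AOS-16 (58.6%, against 5.06% of all genes), and none in AOS-14. All 29 differences lay below 0, with a median of -1.36 (-1.25 after subtraction of the median of all genes). Their summed level was 4055 TPM in AOS-14, 11806 TPM in AOS-16, 4373 TPM in A129-2, and 5693 and 5769 TPM in the ESC XX libraries. AOS-16 thus stood above the other 4 stem cell libraries, while AOS-14 was close to A129-2. This list was written after the values had been seen and is given as a description. Of the 20 heat shock and other chaperones of another list, 30% passed the bound, against 8.43% of all genes. The 5 genes higher in AOS-16 were Hspa5, Hsp90b1, Herpud1, Pdia4 and Dnajb9, all of the ER. All 5 are also on the ER list and are thus no separate evidence. The 1 higher in AOS-14 was Cryab, a small heat shock protein.

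The promoters of several of these genes hold the ER stress response element (ERSE), the sequence CCAAT, any 9 bases, then CCACG, which ATF6 is known to bind together with NF-Y. It is shown here because the genes that hold it in their promoters were rare and lay mostly on the side of AOS-16. Sequences are from RefSeq (GRCm38.p6), in the sense of the gene, with the element in capitals. It also appears as its reverse complement, which starts with CGTGG and ends with ATTGG. The first pair covers the 250 bases before the start of transcription, on chr2:34771840-34772089 (plus strand) for Hspa5 and chr10:86705445-86705694 (minus strand) for Hsp90b1, which holds 2 elements.
Hspa5: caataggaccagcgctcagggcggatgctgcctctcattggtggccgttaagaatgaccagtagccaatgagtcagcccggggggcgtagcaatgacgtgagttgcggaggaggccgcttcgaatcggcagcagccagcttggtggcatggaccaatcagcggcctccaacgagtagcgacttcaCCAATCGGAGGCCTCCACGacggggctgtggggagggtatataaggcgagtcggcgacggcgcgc
Hsp90b1: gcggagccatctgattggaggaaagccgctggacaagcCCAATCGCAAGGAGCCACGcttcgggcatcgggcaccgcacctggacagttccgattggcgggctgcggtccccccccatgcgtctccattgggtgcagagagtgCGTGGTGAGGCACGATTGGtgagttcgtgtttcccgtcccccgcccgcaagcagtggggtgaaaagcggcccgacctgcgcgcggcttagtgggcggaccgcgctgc

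For a further 5 genes the element is shown with 20 bases on each side. They are Derl3 (chr10:75893222-75893280), Creld2 (chr15:88819500-88819558), Syvn1 (chr19:6046512-6046570), Pdia6 (chr12:17266471-17266529) and Dnajc3 (chr14:118937807-118937865), all on the plus strand.
Derl3: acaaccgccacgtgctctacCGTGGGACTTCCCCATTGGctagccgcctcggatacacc
Creld2: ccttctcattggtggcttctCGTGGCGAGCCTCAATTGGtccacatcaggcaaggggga
Syvn1: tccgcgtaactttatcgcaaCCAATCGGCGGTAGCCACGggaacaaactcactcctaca
Pdia6: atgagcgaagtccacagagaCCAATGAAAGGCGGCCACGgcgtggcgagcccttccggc
Dnajc3: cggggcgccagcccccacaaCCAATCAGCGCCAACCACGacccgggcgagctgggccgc

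A window from 250 bases before to 50 bases after the start was found in RefSeq for 9784 of the 13055 genes. The element, searched on both strands, was in 19 of these windows (0.194%). It was in 13 of 488 windows of genes higher in AOS-16 (2.66%), in 0 of 263 windows of genes higher in AOS-14, and in 6 of 9033 windows of genes within the bound (0.0664%). Of the 13 on the side of AOS-16, 8 were genes of the ER pathway (Hspa5, Hsp90b1, Derl3, Creld2, Syvn1, Pdia6, Dnajc3 and Calr), 3 were Xlr3a, Xlr3b and Xlr3c, and the others were Alg12 and Hnrnpa3. In 1 of the 19 windows the match overlapped the letters ACGTG described below. The shares therefore largely repeat the ER list, which was written after the values had been seen, and the 3 Xlr3 genes are nearly identical copies. They are no separate evidence about the ER list. A match is a description of the sequence and not of binding, and a role of the element in these differences was not tested.

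Hspa5 encodes BiP, the main chaperone of the ER and the brake on its stress sensors. Its level was 432 TPM in AOS-14, 2098 TPM in AOS-16, 437 TPM in A129-2, and 581 and 612 TPM in ESC XX. Only AOS-16 stood apart, 4.85-fold above AOS-14 (difference -2.28). Hsp90b1, the ER member of the Hsp90 chaperones, was at 482 TPM in AOS-14, 2179 TPM in AOS-16, 379 TPM in A129-2, and 700 and 730 TPM in ESC XX, a difference of -2.17. Manf, a secreted factor induced by ER stress, was at 95.8 TPM in AOS-14 and 408 TPM in AOS-16 (-2.08), with 95.6 TPM in A129-2. The 3 genes share the same order, with AOS-14 beside A129-2 and AOS-16 highest.

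The disulphide isomerases, which form and exchange disulphide bonds, were likewise uneven. Pdia4 was at 152 TPM in AOS-14 and 570 TPM in AOS-16 (-1.90), and Pdia6 at 345 TPM and 1019 TPM (-1.56). Ero1l, the oxidase that recharges them and also a HIF target, was at 68.9 TPM and 255 TPM (-1.87). In each of these genes A129-2 lay closer to AOS-14 than to AOS-16. Some genes of ER-associated degradation, which pulls misfolded proteins back into the cytosol, followed the same order. Derl3, a channel component, was at 6.51 TPM in AOS-14, 59.5 TPM in AOS-16 and 2.58 TPM in A129-2, with a difference of -3.01. Herpud1, a membrane adaptor of the pathway, was at 32.8 TPM, 146 TPM and 38.8 TPM (-2.12). The ubiquitin ligase Syvn1 had 18.0 TPM in AOS-14 and 58.0 TPM in AOS-16 (-1.63), and its partner Sel1l 15.0 TPM and 45.9 TPM (-1.55). In contrast, the sensor Atf6 (12.2 and 19.8 TPM, -0.65) and Xbp1, the transcription factor spliced by IRE1 (43.8 and 63.6 TPM, -0.53), lay within the bound. AOS-16 was the highest of the 5 stem cell libraries for 24 of the 29 genes (82.8%), against 23.0% of all genes. AOS-14 was the lowest for 15 of them (51.7%), against 31.4% of all genes.

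Genes of glycolysis and the response to hypoxia were also higher in AOS-16. Of the 31 genes listed, 30 were measured and kept, 1 of them through AOS-16 alone. Of the 30, 19 (63.3%, against 5.06% of all genes) were higher in AOS-16 and none in AOS-14. All 30 differences were below 0, Pfkfb4 at -0.05 being the nearest to it, and their median was -1.12 (-1.01 after the same subtraction). The summed level was 13053 TPM in AOS-14, 33452 TPM in AOS-16, 20805 TPM in A129-2, and 17736 and 17453 TPM in ESC XX. AOS-16 was the highest of the 5 stem cell libraries for 29 of the 30 genes (96.7%), against 23.0% of all genes. AOS-14 was the lowest for 9 (30%), near the 31.4% of all genes.

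Gapdh, the glycolytic dehydrogenase often used as a reference gene, had 2581 TPM in AOS-14, 11026 TPM in AOS-16, 7252 TPM in A129-2, and 8314 and 8077 TPM in ESC XX. AOS-14 was low and AOS-16 high relative to the rest, and the difference was -2.09. Eno1, the enolase of glycolysis, had 685 TPM in AOS-14 and 2846 TPM in AOS-16, with the other 3 libraries between 1496 and 1794 TPM (-2.05). Levels of the glucose transporter Slc2a1 were 709 TPM in AOS-14, 1658 TPM in AOS-16, 629 TPM in A129-2, and 235 and 224 TPM in ESC XX (-1.22). Pgk1, the glycolytic phosphoglycerate kinase, lies on the X chromosome and was at 1490 TPM and 3402 TPM (-1.19). Among the 18 glycolytic enzymes of a list written after the values had been seen, 8 were higher in AOS-16 (44.4%, against 5.06% of all genes). Pfkm and Ldhb were the exceptions in direction, with differences of 0.10 and 0.57. The 18 enzymes include genes of the glycolysis and hypoxia list, among them Gapdh, Eno1 and Pgk1, and are no separate evidence. Genes with near-identical pseudogenes, such as Gapdh and Eno1, are uncertain because reads can be shared between copies.

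HIF targets outside the glycolytic chain were gathered in a further list, also written after the values had been seen. Of its 23 kept genes 13 (56.5%, against 5.06% of all genes) were higher in AOS-16 and none in AOS-14. However, 12 of the 23 are on the list above and 1, Ero1l, is on the ER list. Of the 10 on neither, 3 were higher in AOS-16 (Ndufa4l2, Plod2 and Ddit4), with a median of -0.75. Bnip3, which promotes mitophagy in hypoxia, was at 166 TPM in AOS-14, 521 TPM in AOS-16, 190 TPM in A129-2, and 99.7 and 107 TPM in ESC XX (-1.64). Adm, the vasodilator peptide adrenomedullin, was at 9.08 TPM in AOS-14 and 40.4 TPM in AOS-16, against 2.49 TPM in A129-2 (-2.04). The oxygen sensor Egln3 had 39.3 TPM in AOS-14, 112 TPM in AOS-16 and 14.4 TPM in A129-2 (-1.49). For these genes AOS-14 was not the lowest library. Vegfa, the vascular growth factor, had 115 TPM and 241 TPM (-1.06), with 54.9 TPM in A129-2 and 51.8 and 48.8 TPM in ESC XX, so that both AOS lines lay above the other libraries. P4ha2 and Plod2, which hydroxylate collagen in the ER, had differences of -2.02 and -2.26. Ak4, a mitochondrial adenylate kinase, was the only one of the 23 with a positive difference (0.51).

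**Figure D2:**
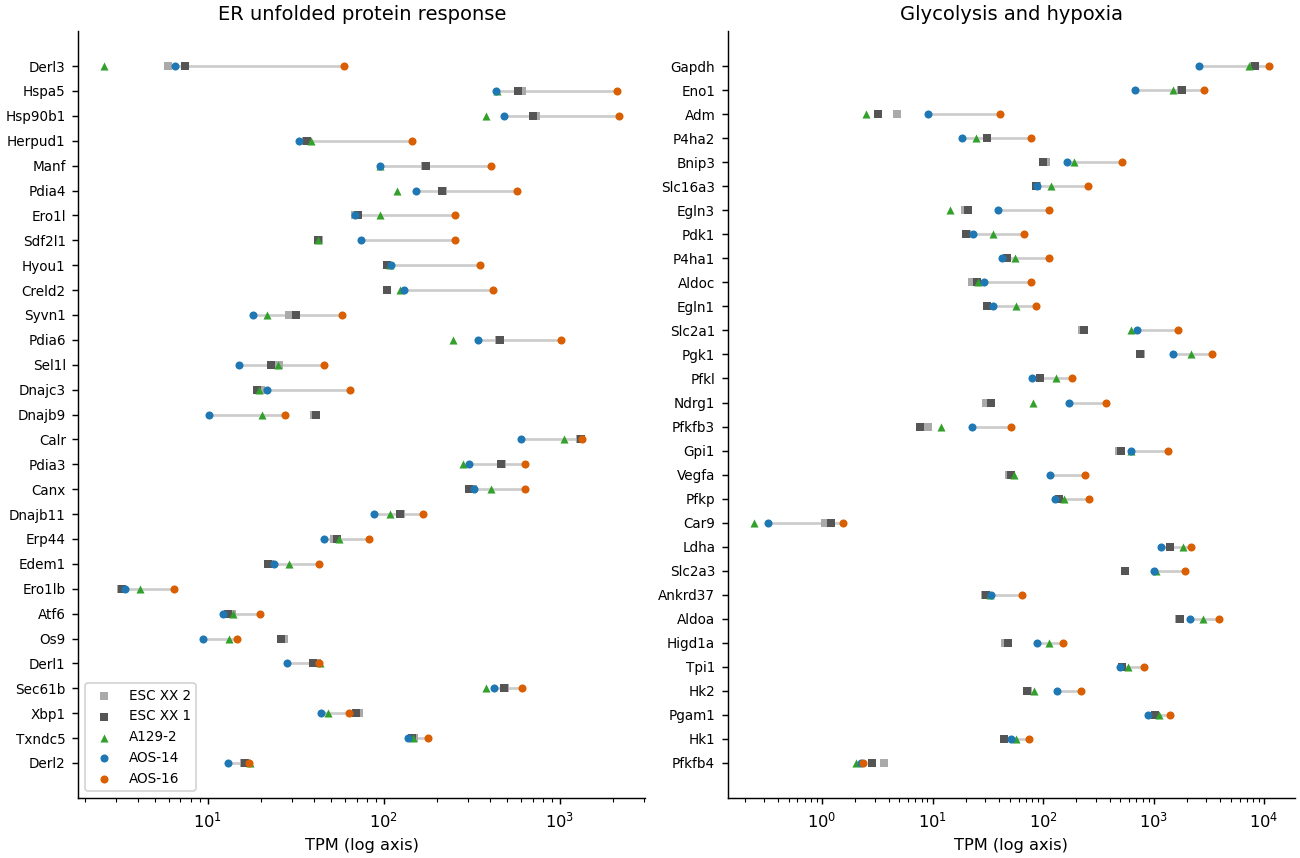
Levels in TPM, on a log axis, of the 29 genes of the ER unfolded protein response (left) and the 30 genes of glycolysis and hypoxia (right) in the 5 stem cell libraries, ordered by the difference between AOS-14 and AOS-16; each point is 1 library and the grey line joins AOS-14 and AOS-16. AOS-16 is the highest point for 24 of the 29 and for 29 of the 30 genes.

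HIF binds sites with the core ACGTG, often followed by C. The sites with ACGTGC in 4 of these promoters are shown with 20 bases on each side, in the sense of the gene and with the match in capitals, from RefSeq (GRCm38.p6). They lie on chr7:138909588-138909635 (minus strand) for Bnip3, where overlapping matches on both strands form GCACGTGC, on chr11:54100826-54100871 (plus strand) for P4ha2, on chr8:124949297-124949342 (minus strand) for Egln1 and on chr4:119108689-119108734 (plus strand) for Slc2a1.
Bnip3: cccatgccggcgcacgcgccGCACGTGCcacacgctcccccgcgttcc
P4ha2: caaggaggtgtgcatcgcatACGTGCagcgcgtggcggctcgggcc
Egln1: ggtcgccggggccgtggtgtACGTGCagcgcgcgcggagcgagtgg
Slc2a1: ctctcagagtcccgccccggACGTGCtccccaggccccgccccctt

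Unlike the ERSE, these letters are common. ACGTGC, on either strand, was in 9.73% of the 9784 windows, in 13.1% of those of genes higher in AOS-16 and in 6.84% of those of genes higher in AOS-14. Of 28 windows of the glycolysis and hypoxia list, 14 held it. The shorter ACGTG, which includes ACGTGC, was in 29.7% of all windows and in 20 of these 28. The list was chosen to hold HIF targets, so its shares describe the list and are no separate evidence about AOS-16. A match is not binding, and a role of these sites in the differences was not tested.

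Targets of ATF4, the transcription factor of the response to amino acid shortage and of the PERK arm of ER stress, were uneven among themselves. Of 22 listed genes 21 were kept, 1 of them through AOS-16 alone, with a median of -0.61. Of the 21, 7 (33.3%, against 5.06% of all genes) were higher in AOS-16 and none in AOS-14. Stc2, a secreted glycoprotein induced by ER stress, had 8.00 TPM in AOS-14, 40.4 TPM in AOS-16 and 7.02 TPM in A129-2 (-2.20). Trib3, a pseudokinase that restrains ATF4, had 30.1, 90.6 and 23.2 TPM in the same order (-1.56). Ddit4, an inhibitor of mTORC1 that is also a HIF target, had 228, 650 and 119 TPM (-1.51), with 53.6 and 53.9 TPM in ESC XX. In these genes AOS-16 stood above every other stem cell library. Ddit3, which encodes CHOP, was at 111 TPM in AOS-14 and 216 TPM in AOS-16 (-0.95), just inside the bound. Shmt2, a mitochondrial enzyme that interconverts serine and glycine, had 89.0 and 200 TPM (-1.16), and Aldh1l2, a mitochondrial folate enzyme, had 1.195 and 6.50 TPM (-1.77). Other genes of the list lay nearer to 0. Asns, asparagine synthetase, had 496 and 530 TPM (-0.10), Phgdh, which opens serine synthesis, had 204 and 227 TPM (-0.15), and Atf4 itself had 382 and 482 TPM (-0.33). AOS-16 was still the highest of the 5 libraries for 19 of the 21 genes (90.5%), against 23.0% of all genes.

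Trp53 and its targets differed in another way, with AOS-14 low rather than AOS-16 high for most genes. Trp53 had 67.7 TPM in AOS-14, 249.96 TPM in AOS-16, 253 TPM in A129-2, and 420 and 398 TPM in ESC XX. AOS-14 was 3.69-fold below AOS-16 (difference -1.87), and AOS-16 was level with A129-2. Of the 16 genes in the list, Trp53 included, all lay below 0, with a median of -0.71. Of these, 4 were higher in AOS-16 (25%, against 5.06% of all genes) and none in AOS-14. Sesn2 (-1.05) and Ccng1 (-1.01) sat at the bound, and the count fell to 2 on the deposited scale, after quantile normalization, with the median difference removed and with a pseudocount of 5. Tnfrsf10b, at -0.11, was level with the median of all genes. AOS-14 was the lowest of the 5 libraries for 13 of the 16 (81.2%), against 31.4% of all genes, and AOS-16 was the highest for 6 (37.5%), against 23.0%.

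Eda2r, a death receptor of the TNF family, had 15.0 TPM in AOS-14, 44.1 TPM in AOS-16, 58.2 TPM in A129-2, and 25.3 and 28.7 TPM in ESC XX (-1.49). Ccng1, an inhibitor of cell cycle progression, had 61.4 TPM in AOS-14 and 125 TPM in AOS-16 (-1.01), with the other libraries between 167 and 172 TPM. Sesn2, a stress sensor that ATF4 also raises, had 34.5 TPM in AOS-14, 72.5 TPM in AOS-16 and 43.0 TPM in A129-2 (-1.05). The first 2 of these place AOS-16 below A129-2 and the third places it above. Cdkn1a, the inhibitor p21, had 61.5 TPM in AOS-14 and 119 TPM in AOS-16 (-0.95), Mdm2, the ligase that degrades p53, had 97.7 and 158 TPM (-0.69), and the death effector Bax had 273 and 430 TPM (-0.65). These 3 were within the bound, with AOS-14 the lowest library in each.

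**Figure D3:**
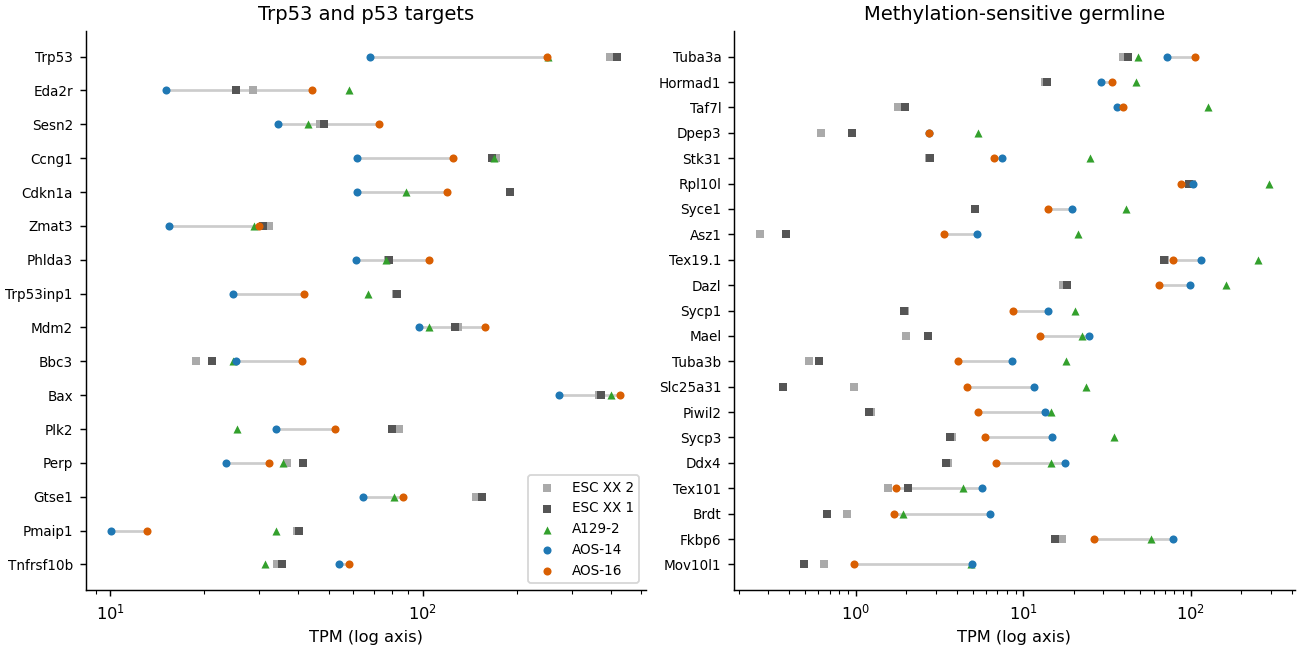
Levels in TPM, on a log axis, of Trp53 and 15 p53 targets (left) and of 21 methylation-sensitive germline genes (right) in the 5 stem cell libraries; each point is 1 library and the grey line joins AOS-14 and AOS-16. AOS-14 is the lowest point for 13 of the 16 genes on the left, and 18 of the 21 genes on the right lie higher in AOS-14 than in AOS-16.

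Some of the germline genes that DNA methylation is known to silence in somatic cells were higher in AOS-14. Of 22 listed genes 21 were kept, 1 of them through AOS-14 alone, and 8 (38.1%, against 3.36% of all genes) were higher in AOS-14 and none in AOS-16, and the median difference was 0.63 (0.74 above the median of all genes). Most of the 8 are weakly expressed: with a pseudocount of 5 the count was 1, and of the 12 genes whose mean reached 10 TPM 3 were higher in AOS-14. Fkbp6, a co-chaperone of the piRNA pathway, had 78.6 TPM in AOS-14, 26.6 TPM in AOS-16, 58.2 TPM in A129-2, and 15.6 and 17.1 TPM in ESC XX (1.53). Ddx4, the germ cell helicase VASA, had 17.8 TPM in AOS-14, 6.92 TPM in AOS-16 and 14.7 TPM in A129-2 (1.25). Sycp3, part of the axis of meiotic chromosomes, had 14.9, 5.96 and 34.8 TPM in the same order (1.195). AOS-16 was below both other haploid lines in these genes and above the ESC XX libraries. The others past the bound were Mov10l1, Brdt, Tex101, Piwil2 and Slc25a31, with differences from 1.16 to 1.59 and at most 13.5 TPM in AOS-14.

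Dazl, an RNA-binding protein of germ cells, had 98.7 TPM in AOS-14 and 64.3 TPM in AOS-16 (0.61), and Taf7l and Hormad1 had differences of -0.13 and -0.20. The summed level of the list was 691 TPM in AOS-14, 516 TPM in AOS-16, 1245 TPM in A129-2, and 286 and 287 TPM in ESC XX, so that the pair differed less from each other than from A129-2. AOS-14 was the highest of the 5 libraries for 6 of the 21 genes (28.6%), against 14.3% of all genes. None of the 14 genes of DNA methylation and its removal passed the bound. Dnmt1, the maintenance methyltransferase, had 88.2 TPM in AOS-14 and 91.5 TPM in AOS-16, and the de novo enzyme Dnmt3b had 36.1 and 32.8 TPM. The largest differences of that list were in Tet3, a dioxygenase that oxidises methylated cytosine (3.31 and 6.58 TPM, -0.82), and in Dnmt3l, the cofactor of the de novo enzymes (223 and 387 TPM, -0.79).

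Multicopy germline genes of the X chromosome differed in both directions. The deposited symbols include 26 of them, of which 24 were kept, 1 of them through 1 library alone. Of the 24, 5 were higher in AOS-14 and 7 in AOS-16, together 50%, against 8.43% of all genes. All 3 Xlr3 genes, which encode proteins related to the synaptonemal complex protein SYCP3, were higher in AOS-16. Their summed level was 72.3 TPM in AOS-14, 420 TPM in AOS-16, 315 TPM in A129-2, and 22.4 and 22.9 TPM in ESC XX, a difference of -2.52 with AOS-14 between the other haploid lines and ESC XX. The copies are nearly identical, so the split of reads among them is uncertain and the sum is given first. Xlr3a had 45.4 TPM in AOS-14 and 225 TPM in AOS-16 (-2.28), Xlr3c had 20.5 and 115 TPM (-2.44), and Xlr3b had 6.48 and 79.7 TPM (-3.43). Their promoters hold the ERSE, which is shown for Xlr3a (chrX:73097145-73097203, minus strand) and Xlr3b (chrX:73192010-73192068, plus strand) because these genes are not on the list of the ER pathway. The capitals are the same in both, and the bases after them differ.
Xlr3a: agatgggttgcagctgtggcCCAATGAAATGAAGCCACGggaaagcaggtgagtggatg
Xlr3b: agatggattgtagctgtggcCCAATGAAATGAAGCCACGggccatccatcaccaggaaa

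The Xlr5 genes went with Xlr3. Xlr5a had 11.5 TPM in AOS-14 and 44.1 TPM in AOS-16 (-1.85), and Xlr5c had 10.1 and 26.6 TPM (-1.31). In contrast, 3 homeobox genes of the Rhox cluster were higher in AOS-14. Rhox9 had 84.3 TPM in AOS-14, 27.1 TPM in AOS-16 and 30.5 TPM in A129-2 (1.60), and Rhox6 had 84.9, 32.7 and 39.0 TPM (1.35). Rhox1 had 85.9 TPM in AOS-14 and 40.8 TPM in AOS-16 (1.05), with 61.4 TPM in A129-2. AOS-14 was the highest library in all 3. Within the same cluster, Rhox2a was higher in AOS-16, with 6.71 TPM in AOS-14, 29.2 TPM in AOS-16 and 36.2 TPM in A129-2 (-1.97), and Rhox10 was so at low levels, with 0.73 and 3.50 TPM (-1.38). The Mage genes, known as cancer-testis antigens, were within the bound except for Magea6 (1.31) and Mageb4 (1.02).

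Core pluripotency genes were close. Pou5f1, which encodes the core pluripotency factor OCT4, had 2111 TPM in AOS-14 and 2153 TPM in AOS-16, Nanog had 616 and 531 TPM, and Sox2 had 188 and 202 TPM. All 24 genes of the pluripotency list were kept and had a mean of at least 10 TPM. AOS-16 was the lowest stem cell library for 11 of them (45.8%), against 18.4% of all genes. Of the list, 4.17% passed the bound, against 8.43% of all genes. The only gene of the list past the bound was Dppa3, a protein that protects maternal methylation in the zygote and is expressed in naive stem cells, with 146 TPM in AOS-14, 65.9 TPM in AOS-16 and 180 TPM in A129-2 (1.13). Zfp42, a marker of naive cells also called Rex1, was low in both, with 88.0 TPM in AOS-14 and 72.8 TPM in AOS-16 against 650 TPM in A129-2 and 334 and 339 TPM in ESC XX. Of 12 kept genes of the post-implantation epiblast, the state that follows naive pluripotency, 9 lay below 0. The median of the 12 was -0.53, against -0.11 over all genes. Of the 12, 2 were higher in AOS-16 (16.7%, against 5.06% of all genes). These were Sox3, a transcription factor (4.44 and 14.22 TPM, -1.48), and Cdh2, N-cadherin (1.82 and 5.10 TPM, -1.11). Lef1, a transcription factor of the WNT pathway and the only WNT target past the bound, had 3.15 TPM in AOS-14 and 15.3 TPM in AOS-16 (-1.97). None of the 12 ERK feedback genes and 11 LIF and STAT3 genes passed it. Id4, an inhibitor of differentiation in the BMP and TGF-beta list, was higher in AOS-14 (6.67 and 2.30 TPM, 1.22).

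Imprinted genes are expressed from the maternal or the paternal copy only, and both lines lack a maternal copy. H19, a noncoding RNA normally expressed from the maternal copy, had 71.5 TPM in AOS-14, 25.5 TPM in AOS-16, 9.06 TPM in A129-2, and 98.03 and 100.9 TPM in ESC XX (1.45). Its neighbour Igf2 had 6.26 TPM in AOS-14 and 8.15 TPM in AOS-16. Meg3 and Rian, noncoding RNAs of another imprinted cluster, were low in both lines. Meg3 had 21.9 and 28.0 TPM against 162 TPM in A129-2, and Rian had 15.5 and 19.5 TPM against 111 TPM. In all, 3 of 23 paternally expressed genes (13.04%, against 8.43% of all genes) passed the bound, Peg10 on the side of AOS-14 (1.17) and Zdbf2 (-1.14) and Mest (-1.07) on that of AOS-16. Of 16 maternally expressed genes 2 passed it (12.5%). H19 was higher in AOS-14 and the growth factor adaptor Grb10 was higher in AOS-16 (9.79 and 21.8 TPM, -1.08).

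The share of all genes past the bound was 8.43%. Among markers of other cell types it was 36.4% for trophoblast (4 of 11) and 25% for mesoderm and neural cells (2 of 8). For spermatids it was 28.6% (2 of 7). Some of these calls were at low levels, and the trophoblast and the mesoderm and neural calls went in both directions. AOS-14 was the highest stem cell library for 7 of the 11 trophoblast markers (63.6%), against 14.3% of all genes. Keratins of simple epithelium, which trophoblast also expresses, were split, with Krt8 (47.4 and 19.2 TPM, 1.26) and Krt18 (62.7 and 29.6 TPM, 1.06) higher in AOS-14 and Krt19 (12.1 and 39.3 TPM, -1.62) higher in AOS-16. Of the 11 kept trophoblast markers, Eomes was the only other past the bound (3.34 and 8.95 TPM, -1.195). The mesoderm and neural calls were Gata2, a transcription factor of blood and trophoblast (10.04 and 3.07 TPM, 1.44), and the neuronal tubulin Tubb3 (21.9 and 47.8 TPM, -1.09). None of 11 primitive endoderm markers passed the bound. The feeder fibroblast markers summed to 781 TPM in AOS-14 and 917 TPM in AOS-16, against 774 TPM in A129-2 and 5080 and 5108 TPM in ESC XX, and 17 of the 21 kept lay below 0, with a median of -0.48, in the direction of the ER, glycolysis and p53 lists. The part of feeder cells in those lists was not tested. Lum, a matrix proteoglycan, was the only feeder marker past the bound and was higher in AOS-14 (3.38 and 1.17 TPM, 1.01). Spermatid markers summed to 131 and 183 TPM against 52856 TPM in round sperm, with 7 of 18 kept. Both calls were toward AOS-14 and through that library alone, Prm1, a protamine, at 1.24 TPM and Meig1, a gene of sperm formation, at 1.13 TPM, each listed at 0 in AOS-16. Of the haematopoietic markers, the globins Hba-a1 (1.81 TPM) and Hbb-b1 (6.63 TPM) were kept through AOS-14 alone. None of the 8 Y-linked genes in the tables reached 1 TPM in AOS-14 or AOS-16.

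Of the proliferation genes, none of 18 for G1-S and 1 of 24 for G2-M (4.17%) passed the bound, below the share of 8.43% of all genes. That gene was Kif23, a kinesin of cell division, with 46.1 TPM in AOS-14 and 106 TPM in AOS-16 (-1.19), while the mitotic kinase Cdk1 had 91.3 and 53.8 TPM (0.75). Both lines had been sorted in G0/G1. None of the 25 genes of cholesterol and fatty acid synthesis passed the bound, but their median was -0.44. AOS-14 was the lowest library for 19 of them (76%), against 31.4% of all genes. Among 37 genes of the respiratory chain the median was 0.26, and the only call was Cox7c, a subunit of cytochrome c oxidase (756 and 1766 TPM, -1.22). None of 18 Polycomb and H3K9 genes and 17 genes of metallothionein and oxidative stress was called.

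**Figure D4:**
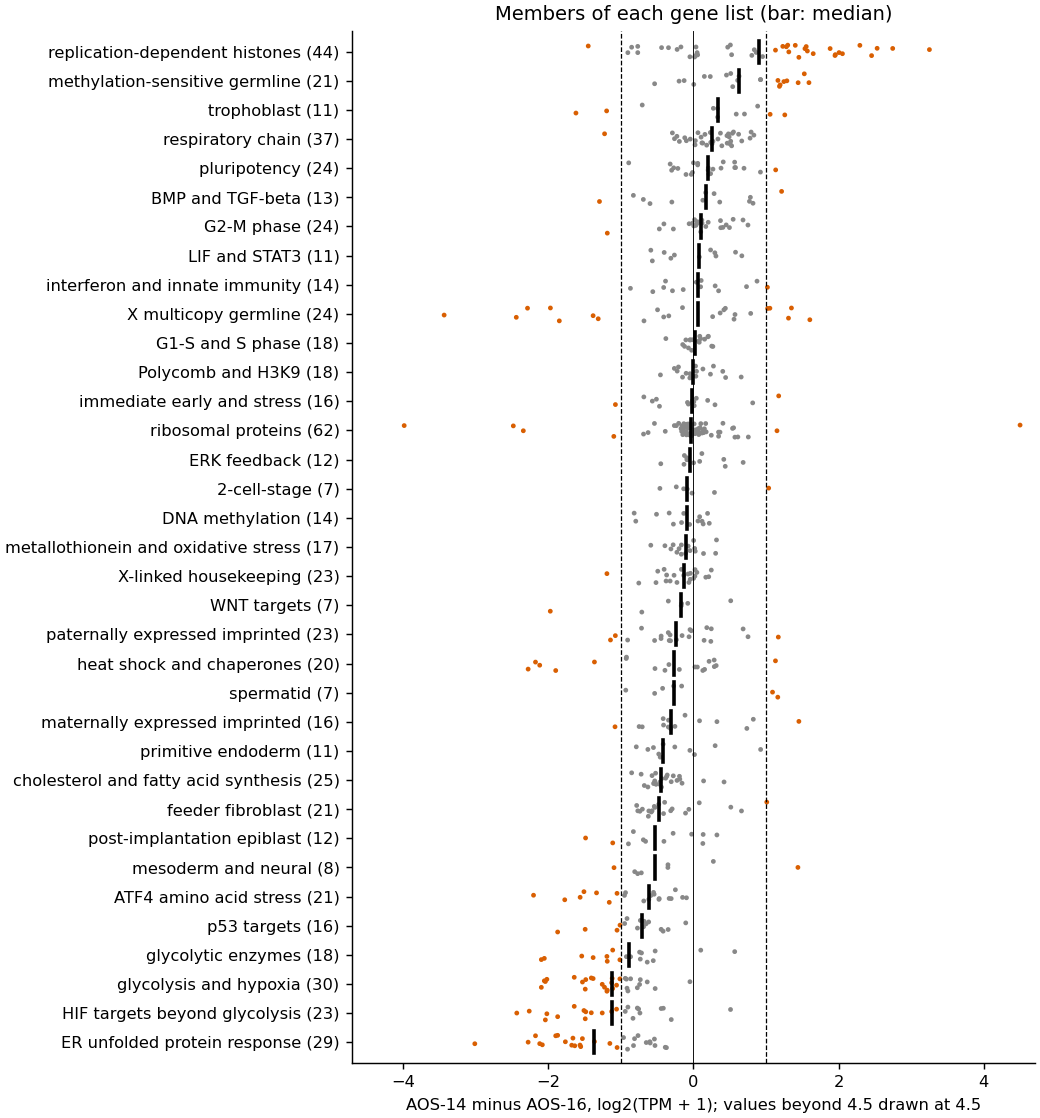
Difference between AOS-14 and AOS-16, in log2(TPM + 1), of every kept gene in each list with at least 5 kept genes; each point is 1 gene, coloured when past the bound of 1, the black bar is the median of the list and the number kept is in parentheses. The ER, HIF, glycolysis and p53 lists lie at the bottom, toward AOS-16, and methylation-sensitive germline genes and histones at the top, although 24 of the 44 histones were kept through 1 library alone.

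Replication-dependent histones, whose mRNA normally ends in a stem-loop and lacks a polyA tail, were at low levels in both lines. The deposited symbols include 64 of them, of which 44 were kept, 24 of them through 1 library alone. Of the 44, 21 were higher in AOS-14 and 1 in AOS-16, together 50%, against 8.43% of all genes. A gene kept only through the library in which it is high had to differ. Of the 20 at 1 TPM or more in both lines, 5 were higher in AOS-14 and none in AOS-16, with a median of 0.06. The matching share over all genes with this filter was not counted. Only 2 of the 44 had a mean of at least 10 TPM. The 5 H1 linker histones summed to 32.1 TPM in AOS-14 and 11.5 TPM in AOS-16, and the H3 genes to 32.1 and 10.5 TPM. The H4 genes had 32.3 and 21.5 TPM and the H2B genes 54.6 and 41.8 TPM. The whole list summed to 182 TPM in AOS-14, 105 TPM in AOS-16, 127 TPM in A129-2, and 356 and 329 TPM in ESC XX, so that all haploid lines lay below ESC XX. The transcripts of these genes are short, with a median of 579.5 nt, and AOS-14 was also the library with the small RNA described above. Histones aside, and at a mean level of 10 TPM or more, the median difference was 0.42 for the 46 genes of up to 400 nt and between -0.10 and -0.03 in the longer classes. The part of transcript length and of small RNA in the histone values was not tested.

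Noncoding genes passed the bound toward AOS-14 more often than protein-coding genes. Of 12443 protein-coding genes 2.35% were higher in AOS-14 and 5.04% on the other side, whereas of 518 genes with another annotation 26.3% were higher in AOS-14 and 5.02% in AOS-16. Antisense genes (118, of which 30.5% were higher in AOS-14) and processed pseudogenes (47, of which 40.4% were) were the most uneven. However, 188 of the 518 were kept through 1 library alone, against 951 of the 12443 protein-coding genes. A gene kept only through the library in which it is high had to differ, and the shares were not recounted without such genes. Whether strand was used in counting is not given in the sources used here, and without it an antisense gene and its partner cannot be told apart. Of the 15 genes with the largest differences toward AOS-14, Scarna2 (11515 TPM) and Scarna17 (7140 TPM) are small RNAs of the Cajal body, and Rnu73b (1329 TPM) and DQ267100 (266 TPM) are annotated as small nucleolar RNAs. All 4 were listed at 0 in AOS-16. The Scarna symbols, guides for the modification of spliceosomal RNA, summed to 18667 TPM in AOS-14, 11.1 TPM in A129-2 and 4264 TPM in round sperm. A further 7 of the 15, among them Gm12238, Gm20594 and the pseudogene Atp6v0c-ps2, are predicted genes or pseudogenes.

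Of the remaining genes among these 15, Rps27 is described below, and 3 are protein-coding genes whose level in AOS-14 stood far above that in every other library. Cmah, the enzyme that makes the sialic acid Neu5Gc, had 128.7 TPM in AOS-14, 4.41 TPM in AOS-16, 3.64 TPM in A129-2, and 4.85 and 5.14 TPM in ESC XX (4.58). Cd84, an immune receptor of the SLAM family, had 56.4 TPM in AOS-14 and between 0.385 and 4.00 TPM in the other stem cell libraries (5.37). Ripply3, a transcriptional repressor that acts with T-box factors, had 29.1 TPM in AOS-14 and at most 1.01 TPM in the others (4.59). On the side of AOS-16, Derl3, Xlr3b and Xlr3c were among the 15 lowest. Rab33b, a GTPase of the Golgi, had 5.35 TPM in AOS-14, 47.0 TPM in AOS-16 and 23.9 TPM in A129-2 (-2.92), and Armcx2, an X-linked gene, had 5.08, 32.9 and 24.4 TPM (-2.48). Pcyt1b, an enzyme of phosphatidylcholine synthesis, had 5.03, 32.2 and 28.2 TPM (-2.46), so that in these 3 genes AOS-14 was the low library. Nxph4, a secreted neurexophilin, had 2.59, 21.7 and 5.72 TPM (-2.66), with AOS-16 the high library.

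Several of the largest differences lay in genes that share sequence with copies elsewhere and are uncertain. Rps27, a ribosomal protein gene, had 2729 TPM in AOS-14 and 16.7 TPM in AOS-16 (7.27), but together with its retrocopy Rps27rt it had 7475 and 5972 TPM, a difference of 0.32. Eif3j1 had 2.66 and 46.0 TPM (-3.68), and summed with Eif3j2 80.1 and 92.0 TPM (-0.20). Both sums lay well within the bound. In contrast, Dynlt1b, a dynein light chain, had 7.72 TPM in AOS-14 and 224 TPM in AOS-16 (-4.69), and the sum of Dynlt1a, Dynlt1b and Dynlt1c still had 13.6 and 247 TPM (-4.08), with 224 TPM in A129-2. The ribosomal protein gene Rpl26 had 31.3 TPM in AOS-14, 510 TPM in AOS-16 and 724 TPM in A129-2 (-3.98). Rpl30 (-2.48), Rpl34 (-2.34) and Rps23 (-1.10) were also higher in AOS-16, and Rpl38 (1.15) was higher in AOS-14. The other 56 of 62 ribosomal protein genes were within the bound, so that 9.68% were past it, near the 8.43% of all genes.

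No chromosome stood out by its median. Over genes whose mean reached 10 TPM, the median difference ran from -0.12 on the X chromosome (323 genes) to 0.05 on chromosome 18 (191 genes), against -0.06 over all, a largest distance of 0.11. The share of these genes past the bound was 4.87% over all. It was highest on the X chromosome (30 of 323, 9.29%), which held 22 genes higher in AOS-16 and 8 higher in AOS-14, and on chromosome 10 (32 of 379, 8.44%), and lowest on chromosome 18 (4 of 191, 2.09%). Chromosomes were taken by symbol from an annotation of GRCm38, which is another build than the one used for the reads. Of 23 X-linked housekeeping genes 1 passed the bound, which was Pgk1, and Xist, the RNA of X inactivation, was at 1.37 TPM in AOS-14 and 1.69 TPM in AOS-16.

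**Figure D5:**
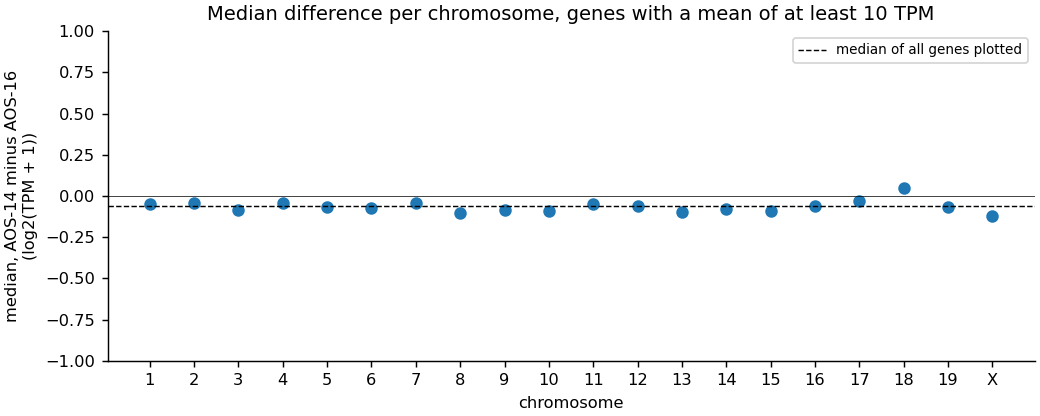
Median difference between AOS-14 and AOS-16, in log2(TPM + 1), over the genes of each chromosome whose mean reached 10 TPM; the dashed line is the median of all these genes. All medians lie between -0.12 and 0.05.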

How the data were processed

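PolyA RNA libraries were made with a stranded kit, per the labels' protocols. TopHat2 2.0.13, Cuffdiff 2.2.1 and the mm9 build are named in the submitters' processing notes, without settings. The authors' deposited values were taken to be FPKM, the unit that the ESC XX tables name; the header of the haploid lines' table names none. The 1181 symbols starting with Mir, Snora or Snord were left out, and each library was rescaled to a total of 1e+06 (TPM). Genes of at least 1 TPM in either line were compared on log2(TPM + 1), with a bound of 1. Python 3.11.15, numpy 2.4.6, pandas 2.3.3 and matplotlib 3.10.9 were used. The calling rule was run on simulated counts with planted changes well past the bound in well expressed genes. The simulation had random counting error only and no other spread between libraries. It checks the code and not the calls in these data. Depth was estimated from the steps of low FPKM values in 3585 genes with 1 annotated transcript, and it limits the precision of low values.

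Members and lists were chosen with earlier results of these data known, and 3 lists (ER unfolded protein response, HIF targets beyond glycolysis, glycolytic enzymes) after the values had been seen. By rule, the genes named were the 15 highest and 15 lowest differences at a mean of 10 TPM or more, up to 4 of each list with the largest absolute difference, all past the bound where at most 8 were, and a fixed set of pluripotency, methylation and imprinted genes. Other genes, and sums over near-identical copies, were named after their values were seen. Alternatives were other pseudocounts, filters and scalings.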

Additional observations from a re-analysis of the deposited data

Results flagged for a closer look

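Symbols outside the comparison, those starting with Mir, Snora or Snord, held 11.9% of all FPKM in AOS-14, against 0.00192% in AOS-16, 0.108% in A129-2 and 5.93% in round sperm. In AOS-14, 100 of 1076 Mir symbols, 23 of 36 Snora symbols and 29 of 69 Snord symbols were above 0, and in AOS-16 5, 0 and 0. Mir6236 alone had 31275 FPKM in AOS-14 and 0 in the other stem cell libraries, and Snord69 had 6311 FPKM. What sets this signal was not tested.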

How the results depend on the processing

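Of the 95 named genes past the bound, 931 of 1001 values stayed past it under the alternatives run, and none changed sign. These genes were picked for a difference of at least 1, and a change of pseudocount or filter cannot change a sign. Across the scalings the median of all genes only ran from -0.11 to 0.07. The lack of sign changes is therefore no check of the calls. The counts of glycolysis and hypoxia (19) and ER unfolded protein response genes (17) stayed within 1.5 times. The medians of these 2 lists, and of the ATF4, p53 and germline lists, kept their sign. Over all lists, 74 of 406 medians moved by more than the spread of the ESC XX pair and 38 had the other sign, among them medians of the 2-cell-stage, X multicopy germline, heat shock, mesoderm and neural, and spermatid lists and that of histones (-0.05 with a filter of 10 TPM in either library). Genes higher in AOS-16 numbered 1216 with a pseudocount of 0.1, 184 with a pseudocount of 5, 337 with a filter of 10, 262 on the FPKM as deposited with or without the small RNA symbols and 428 after quantile normalization. Genes higher in AOS-14 numbered 123 with a pseudocount of 5 and 139 with a filter of 10. The split of all calls toward AOS-14 was 39.9% in the main setting, 29.2% with the filter of 10, 68.2% and 61.4% as deposited with and without small RNA, and 55.5% after quantile normalization. Within the ESC XX pair, 140 genes passed the bound with a pseudocount of 0.1, 2 with 5, 1 with the filter of 10, 18 and 12 as deposited with and without small RNA symbols, and 21 with protein-coding symbols only, a setting added after seeing the data. With a pseudocount of 5, the ATF4 list had 4 genes higher in AOS-16, the p53 list 2, and germline genes and histones 1 and 3 higher in AOS-14. With the filter of 10, germline genes had 5 and histones 0. The p53 count was also 2 as deposited (with and without small RNA), after quantile normalization and with the median difference removed. The cause of these changes was not tested. No paired analysis was possible because each line has 1 library, and none could be left out. Depth limits genes near 1 TPM. In all, 1162 genes were kept through 1 library alone, and not all of them are near 1 TPM. Scarna2, for example, had 11515 TPM in AOS-14 and 0 in AOS-16.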
